A study of Mus musculus with 9 samples.

Results

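Heat shock and endoplasmic reticulum (ER) chaperone genes were followed in mouse liver, in the presence or absence of a colon tumour growing in the cecum and of a kinase inhibitor given by mouth. The set held 37 genes listed by their role in protein folding, and each was read from array probe sets annotated to exactly 1 gene. Of the 37 genes, 35 had such a probe set, out of 12393 genes with one on the array, and all 35 lay above the filter on dim probe sets that left 9225 genes for testing. Hsp90ab1, a cytosolic Hsp90, and Hsf1, the heat shock transcription factor, had no probe set annotated to them alone and were not measured here. By role, 15 genes encode ER chaperones and folding enzymes, 4 the sensors and factors of the unfolded protein response, 5 components of ER-associated degradation, 9 cytosolic chaperones (8 measured) and 3 mitochondrial chaperones.

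Liver RNA was measured on 9 arrays, 3 for each of 3 groups. Mice of the T-Co and T-TSU groups were males of the athymic strain BALB/c nu/nu, which lacks mature T cells, and carried TK-4, a human colon cancer, implanted in the cecal wall at 6 weeks of age. T-TSU mice received TSU68, an oral inhibitor of VEGF, PDGF and FGF receptor tyrosine kinases, at 400 mg/kg per day from day 7 after implantation for 1 week, and T-Co mice received vehicle. NT-Co mice had no tumour and received vehicle. Their strain, sex and age are not stated separately, and neither is a sham operation, the feeding state or the hour at which livers were taken, so that the tumour and the surgery that placed it cannot be told apart. Treated mice without tumour were not analysed here. The labels number the samples without saying that each is a separate animal. The p-values here therefore weigh differences against the variation among these samples only, and may not extend to animals in general.

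Chaperones bind unfolded or partly folded proteins and help them reach their native shape, and each compartment of the cell has its own set. When unfolded proteins build up in the ER, the sensors ATF6, IRE1 (encoded by Ern1) and PERK (encoded by Eif2ak3) release a transcriptional programme, the unfolded protein response, that raises the ER chaperones and the machinery of ER-associated degradation, while the cytosolic set answers to HSF1, which binds heat shock elements in the promoters of its targets. Hepatocytes secrete most plasma proteins and therefore keep a large ER and high levels of these chaperones.

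Promoters were searched for sites by which both programmes are known to act, and those printed below all hold a match. RefSeq promoter windows of build GRCm38.p6, 300 bases each, were found for 28 of the 37 genes, and not for Atf6. The ER stress response element, searched as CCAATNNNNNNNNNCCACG on both strands, was present in 8 of the 28, namely Calr, Canx, Creld2, Dnajc3, Hsp90b1, Hspa5, Pdia6 and Syvn1, against 0.119% of all 32851 windows. The shorter ER stress response element II, ATTGG followed by any base and CCACG, was present in Dnajb11 and Herpud1 and in 0.0365% of all windows. A heat shock element of 3 repeats (GAANNTTCNNGAA, or its reverse complement TTCNNGAANNTTC) was present in Hsph1 and in the window that Hspd1 and Hspe1 share in part, and in 0.603% of all windows. Hsph1 was thus 1 of 6 cytosolic members with a window, and Hspa1b, Hspb1 and Dnajb1 had no match to any searched motif. TGACGTG, a core that unfolded protein response factors can bind, was found in Hspa5 alone among the members and in 2.01% of all windows. The searched motifs do not cover every form of these sites, and a match is a description of the letters only.

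The 250 bases before the annotated start are given 5′ to 3′ on the gene's own strand for 6 genes, with the matches in capitals. Hspa5 (chr2:34771840-34772089, plus strand) is the best studied target of the response, and carries TGACGTG and the ER stress response element, the latter 65 bases before the start.
Hspa5: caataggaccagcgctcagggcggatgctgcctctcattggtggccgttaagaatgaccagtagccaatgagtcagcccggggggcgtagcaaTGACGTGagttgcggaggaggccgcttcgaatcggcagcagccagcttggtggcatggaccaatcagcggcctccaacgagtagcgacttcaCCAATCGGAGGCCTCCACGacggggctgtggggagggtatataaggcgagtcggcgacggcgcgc
Hsp90b1 (chr10:86705445-86705694, minus strand) has 2 ER stress response elements in opposite orientations.
Hsp90b1: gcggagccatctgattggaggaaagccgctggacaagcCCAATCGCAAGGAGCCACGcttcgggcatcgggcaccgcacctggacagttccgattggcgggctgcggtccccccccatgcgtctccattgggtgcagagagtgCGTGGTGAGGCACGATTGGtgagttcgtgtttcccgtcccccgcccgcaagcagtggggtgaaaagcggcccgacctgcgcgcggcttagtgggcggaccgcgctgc
Calr (chr8:84846932-84847181, minus strand), the only ER chaperone with a called difference on its brightest probe set, has 1 in reverse orientation.
Calr: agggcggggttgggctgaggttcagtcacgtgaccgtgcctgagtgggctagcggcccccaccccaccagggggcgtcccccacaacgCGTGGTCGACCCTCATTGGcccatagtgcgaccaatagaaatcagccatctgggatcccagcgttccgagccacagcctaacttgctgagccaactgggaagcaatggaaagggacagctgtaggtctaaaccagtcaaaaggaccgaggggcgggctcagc
Creld2 (chr15:88819396-88819645, plus strand), the ER member with the widest spread among T-Co arrays, also has 1 in reverse orientation.
Creld2: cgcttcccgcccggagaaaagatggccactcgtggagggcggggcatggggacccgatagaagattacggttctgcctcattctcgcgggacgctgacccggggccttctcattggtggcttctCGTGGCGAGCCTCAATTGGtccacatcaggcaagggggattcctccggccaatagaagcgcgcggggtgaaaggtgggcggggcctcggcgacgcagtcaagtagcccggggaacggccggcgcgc
Herpud1 (chr8:94386179-94386428, plus strand) has the element II, 52 bases before the start.
Herpud1: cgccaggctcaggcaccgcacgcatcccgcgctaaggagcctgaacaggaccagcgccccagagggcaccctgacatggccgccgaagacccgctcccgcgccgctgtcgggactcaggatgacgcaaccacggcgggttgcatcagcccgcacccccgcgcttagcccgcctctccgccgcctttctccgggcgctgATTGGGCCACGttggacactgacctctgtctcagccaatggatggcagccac
Hspe1 (chr1:55087898-55088147, plus strand) stands for the mitochondrial pair and has 2 overlapping heat shock elements.
Hspe1: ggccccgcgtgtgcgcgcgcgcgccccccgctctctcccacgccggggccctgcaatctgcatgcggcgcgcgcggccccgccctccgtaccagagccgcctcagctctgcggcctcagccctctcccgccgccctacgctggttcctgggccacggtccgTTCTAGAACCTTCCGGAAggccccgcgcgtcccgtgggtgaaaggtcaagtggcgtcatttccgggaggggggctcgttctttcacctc

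All values below are the deposited linear array intensities, with no detection calls. Arrays had been scaled to a common level, with medians between 107.88 and 120.06, and the number of arrays limits the precision. The beta-actin 3′ to 5′ ratio, a sign of RNA integrity and labelling, was 2.26 to 3.14 for NT-Co, 1.88 to 2.10 for T-Co and 1.79 to 2.16 for T-TSU, so that NT-Co arrays lay above both tumour groups. That of Gapdh was 0.736 to 0.798, 0.734 to 0.809 and 0.707 to 0.851. The summed intensity of 10 hepatocyte markers was 256381 to 280741 for NT-Co, 316606 to 319923 for T-Co and 255858 to 286182 for T-TSU, and each of the 10 passed the filter. Tests are limma fits to log2(intensity + 7.92) over all probe sets, with Benjamini-Hochberg adjustment and a threshold of 0.05, and log2 differences are given ± SE. In bulk liver, fewer cells of a type and less RNA per cell cannot be told apart.

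Few of the 35 genes passed the adjusted threshold between groups. Against NT-Co, Atf6 was higher in T-Co and no member was called lower, where 3.56% of all 9225 genes were called higher and 2.76% lower. Without adjustment 9 of the 35 had p under 0.05 in that comparison, a share near the 21.9% of all genes. Between T-TSU and T-Co no member was called in either direction, where 0.0434% of all genes were called higher and 0.0108% lower. In limma without adjustment 7 of the 35 had p under 0.05, against 11.5% of all genes. Against NT-Co, T-TSU had Atf6 higher and Calr lower, with 2.06% of all genes called higher and 1.55% lower. There 14 of the 35 had an unadjusted limma p under 0.05, a larger share than the 16.5% of all genes. In limma's F test for any difference between the 3 groups, Calr (adjusted p = 0.0129) and Atf6 (adjusted p = 0.0142) passed, 2 of 35 members, against 5.56% of all genes. The T-Co arrays enter their comparisons with NT-Co and with T-TSU with opposite signs, and the NT-Co arrays are shared by both comparisons against them, so the comparisons are not independent of each other. Of 23 members with more than 1 probe set tested, all probe sets had a common sign in 16 in T-Co against NT-Co (not in Hsp90b1, Canx, Sel1l, Derl1, Hspa4, Hspa8 and Hsph1), in 13 in T-TSU against T-Co (not in Canx, Pdia6, Xbp1, Sel1l, Edem1, Derl1, Hspa1b, Hspa8, Hspb1 and Hspa9) and in 16 in T-TSU against NT-Co (not in Canx, Dnajc3, Hyou1, Sel1l, Edem1, Derl1 and Hspa8).

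**Figure D1:**
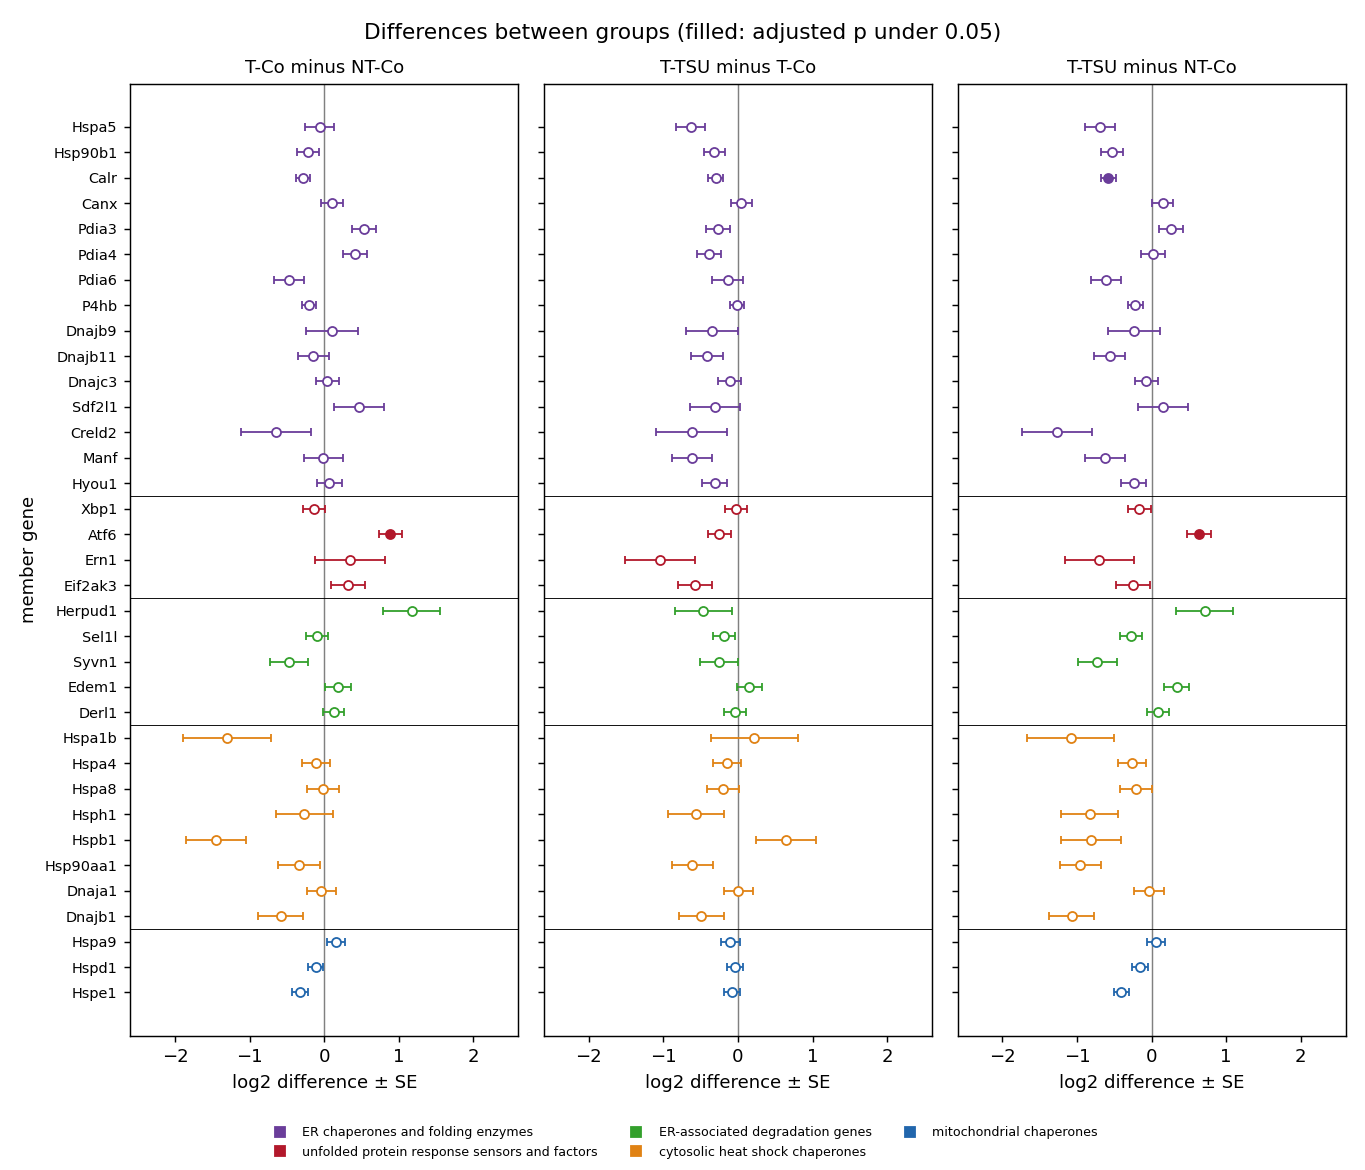
Log2 difference of intensity ± SE from the limma fit for the 35 measured genes (rows, coloured by role) in the 3 comparisons (panels); filled points passed an adjusted p of 0.05. Atf6 is filled in both comparisons with NT-Co and Calr in that of T-TSU with NT-Co, while most ER chaperones lie left of 0 in T-TSU against T-Co without passing.

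Among the ER chaperones and folding enzymes, Hspa5 (BiP, the Hsp70 of the ER and the main sensor-binding chaperone) had intensities of 13522, 22532 and 14569 in NT-Co replicates 8, 10 and 11. The values were 20920, 14048 and 13333 in T-Co replicates 9, 10 and 13, and 10265, 10392 and 9835 in T-TSU replicates 2, 12 and 14. NT-Co and T-Co overlapped, each with 1 high array, and all 3 T-TSU arrays lay below the other 6. On the log2 scale T-TSU differed from T-Co by -0.63 ± 0.20 (adjusted p = 0.296) and from NT-Co by -0.69 ± 0.20 (adjusted p = 0.075), neither of which passed. T-Co differed from NT-Co by -0.06 ± 0.20, with a 95% interval of -0.49 to 0.37. A second Hspa5 probe set gave -0.62 ± 0.20 for T-TSU against T-Co and -0.70 ± 0.20 for T-TSU against NT-Co.

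Calr, a calcium-binding lectin chaperone of the ER, read 16412, 18025 and 19088 for NT-Co, 15284, 13440 and 15220 for T-Co, and 11782, 12228 and 11727 for T-TSU. The 3 groups did not overlap at all, with T-TSU lowest and NT-Co highest. Calr fell by 0.58 ± 0.10 on the log2 scale in T-TSU against NT-Co, 1.49-fold, with means of 11912 ± 275 and 17842 ± 1348 (SD, n = 3) and an adjusted p of 0.00672. All 3 of its probe sets were called in that comparison, where 3.85% of all probe sets were, with differences of -0.58, -0.54 and -0.83, and of the dimmer pair the last passed in 18 of 18 alternatives and the other in 12. The steps between were not called: -0.28 ± 0.10 for T-Co against NT-Co (adjusted p = 0.112) and -0.30 ± 0.10 for T-TSU against T-Co (adjusted p = 0.325). The call held in 18 of 19 alternative analyses and was lost without the intensity trend in the variance model (adjusted p = 0.0732).

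Canx, the membrane-bound partner of calreticulin in the folding of glycoproteins, did not share this order. Its brightest probe set averaged 5046 ± 440 for NT-Co, 5462 ± 959 for T-Co and 5603 ± 541 for T-TSU, with all groups overlapping. A dimmer Canx probe set fell by 0.65 ± 0.18 in T-Co against NT-Co (adjusted p = 0.0453), a comparison in which 6.54% of all probe sets were called, while the brightest gave 0.10 ± 0.14 and the remaining one 0.67 ± 0.21 (adjusted p = 0.0751). That call passed in 7 of 18 alternatives, and the 3 Canx probe sets do not give a common direction. Hsp90b1 (GRP94, the Hsp90 of the ER) averaged 10053 ± 1644 for NT-Co, 8668 ± 1453 for T-Co and 6904 ± 343 for T-TSU. Its T-TSU arrays lay below every NT-Co array, at -0.53 ± 0.15 with an adjusted p of 0.0654.

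No protein disulfide isomerase, the enzymes that form and rearrange disulfide bonds, was called in any comparison. Pdia3, the isomerase that works with the lectin chaperones, read 3902, 5008 and 4000 for NT-Co, 7739, 4890 and 6278 for T-Co, and 5386, 5003 and 5024 for T-TSU. The T-Co and NT-Co arrays overlapped by 1 array, and the difference of 0.53 ± 0.16 had an adjusted p of 0.0678. Without T-Co replicate 10, the lowest of its group, it was 0.70 with an adjusted p of 0.0190. Pdia4, a larger isomerase, was higher in every T-Co array than in any NT-Co array (1124.5 ± 98.4 against 844 ± 85.3) with an adjusted p of 0.155. In that comparison Pdia6 was at -0.47 ± 0.20 and P4hb, the classical isomerase, at -0.20 ± 0.10, with adjusted p of 0.197 and 0.234. In T-TSU against NT-Co both lay lower without overlap, at -0.61 ± 0.20 (adjusted p = 0.136) and -0.22 ± 0.10 (adjusted p = 0.272), while Pdia3 was at 0.26 and Pdia4 at 0.02 with overlap. In T-TSU against T-Co all 4 differences were below 0, at -0.27 for Pdia3, -0.39 for Pdia4, -0.14 for Pdia6 and -0.01 for P4hb.

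Among the DnaJ cochaperones of BiP, Dnajb9 read 2907, 5362 and 1751 for NT-Co, 5283, 2521 and 2554 for T-Co, and 2577, 2418 and 2667 for T-TSU. The T-TSU arrays were within 1.1-fold of each other while the NT-Co arrays spanned 3.06-fold and the T-Co arrays 2.10-fold. Dnajb11 averaged 1075 ± 304 for NT-Co, 966 ± 228 for T-Co and 708 ± 48.9 for T-TSU. Dnajc3, which also inhibits PERK, averaged 2796 ± 625, 2841 ± 266 and 2628 ± 151. Of 5 Dnajc3 probe sets, 1 rose by 0.81 ± 0.17 in T-Co against NT-Co (adjusted p = 0.0162), in 15 of 18 alternatives (not without NT-Co replicate 8 or 11 or the intensity trend), whereas the brightest gave 0.04 ± 0.15, and all 5 were above 0.

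Creld2 and Manf, small stress-induced proteins of the ER that can be secreted, varied widely between arrays. Creld2 read 1825, 4810 and 1627 for NT-Co, 3297, 1079 and 1042 for T-Co, and 682, 1496 and 991 for T-TSU. Manf read 4396, 8364 and 4338 for NT-Co, 7817, 3807 and 5235 for T-Co, and 3486, 3699 and 3370 for T-TSU. In both genes NT-Co replicate 10 and T-Co replicate 9 stood well above the rest of their groups. T-TSU lay below NT-Co without overlap for both, with -1.27 ± 0.47 for Creld2 (adjusted p = 0.185) and -0.62 ± 0.27 for Manf (adjusted p = 0.255). Sdf2l1, a component of the BiP complex, and Hyou1, an ER Hsp110 that exchanges nucleotide on BiP, overlapped in all 3 comparisons on their brightest probe sets, with log2 differences of -0.31 to 0.47. The dimmest of 3 Hyou1 probe sets lay higher in T-Co than in NT-Co without overlap (1.03 ± 0.31, adjusted p = 0.0697) and lower in T-TSU than in T-Co without overlap (-0.60 ± 0.31, adjusted p = 0.544).

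Counted together, 14 of the 15 ER chaperones had a log2 difference below 0 in T-TSU against T-Co, with a median of -0.31, where 49.9% of all 9225 genes lay below 0 with a median of 0.00. None passed the test. In 3 of the 15 (Hspa5, Calr and Manf) every T-TSU array lay below every T-Co array, which held for 7.54% of all genes, and in none did every T-TSU array lie above, which held for 7.08%. Both counts depended on single arrays. The count below 0 was 10 of 15 without T-Co replicate 9 and 15 of 15 without T-Co replicate 10, and the median ranged from -0.46 to -0.11 with 1 array left out. The count without overlap was 10 of 15 without T-Co replicate 10 and 6 without T-TSU replicate 12. With the mean of all probe sets of a gene it was 5. The share of all genes was not recomputed for these alternatives, and fewer arrays in a group make overlap less likely. A further list of 40 tested genes for ER folding, translocation and degradation did not share the shift. In it 18 were below 0, with a median of 0.04, and 1 lay lower without overlap. A list of PERK branch and stress-induced factors had 6 of 9 below 0, with a median of -0.36, and 2 lower without overlap. Further cytosolic chaperones and cochaperones had 25 of 38 below 0 (median -0.11), and further mitochondrial chaperones and proteases 6 of 14 (median 0.03). Some cell type marker lists shifted the same way as the ER chaperones. Of 10 hepatocyte markers 9 were below 0, with a median of -0.22, and 8 lay lower without overlap. All 12 Kupffer cell and macrophage markers were below 0, with a median of -0.85, and 7 lay lower without overlap. Endothelial markers had 10 of 11 below 0 (median -0.37), with 5 lower without overlap. Neutrophil markers had 4 of 5 below 0 (median -0.69), cholangiocyte markers 2 of 2, and B and plasma cell markers 3 of 5. Stellate cell and fibroblast markers went the other way, with 7 of 9 above 0 and a median of 0.38. Of 4 pancreatic acinar markers tested, 3 were above 0. None of these markers was called either, and their part in the ER chaperone values was not tested. Against NT-Co, 11 of the 15 were below 0 in T-TSU, with a median of -0.24, and 8 did not overlap (Hspa5, Hsp90b1, Calr, Pdia6, P4hb, Dnajb11, Creld2 and Manf), where 12.5% of all genes did so. In T-Co against NT-Co, 8 of 15 were below 0, with a median of -0.01. The count was 5 without NT-Co replicate 10 or without T-Co replicate 10 and at most 11 under the other alternatives. On the low side 2 of the 15 did not overlap, where 13.7% of all genes did so, and on the high side 1 (Pdia4), where 12.9% did so.

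Plasma cells are rich in ER chaperones, and pancreatic tissue taken with a liver would bring ER-rich acinar cells. The summed level of 7 B and plasma cell markers was 4552 to 6221 for NT-Co, 3580 to 6177 for T-Co and 3699 to 4143 for T-TSU, with Cd79a and Tnfrsf17 below the filter, and most of the sum was Sdc1 (3042 to 5543 over the 9 arrays). That of 12 pancreatic acinar markers was 2494 to 2680, 1012 to 1446 and 1365 to 2108, with 8 of the 12 below the filter, including Cpa1, Cpb1 and Ctrb1. Most of that sum was Cela1 (490 to 2296), and in T-Co against NT-Co 2 of the 4 tested acinar markers were above 0, with a median of 0.28. The part of these cells in the ER chaperone values was not tested.

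**Figure D2:**
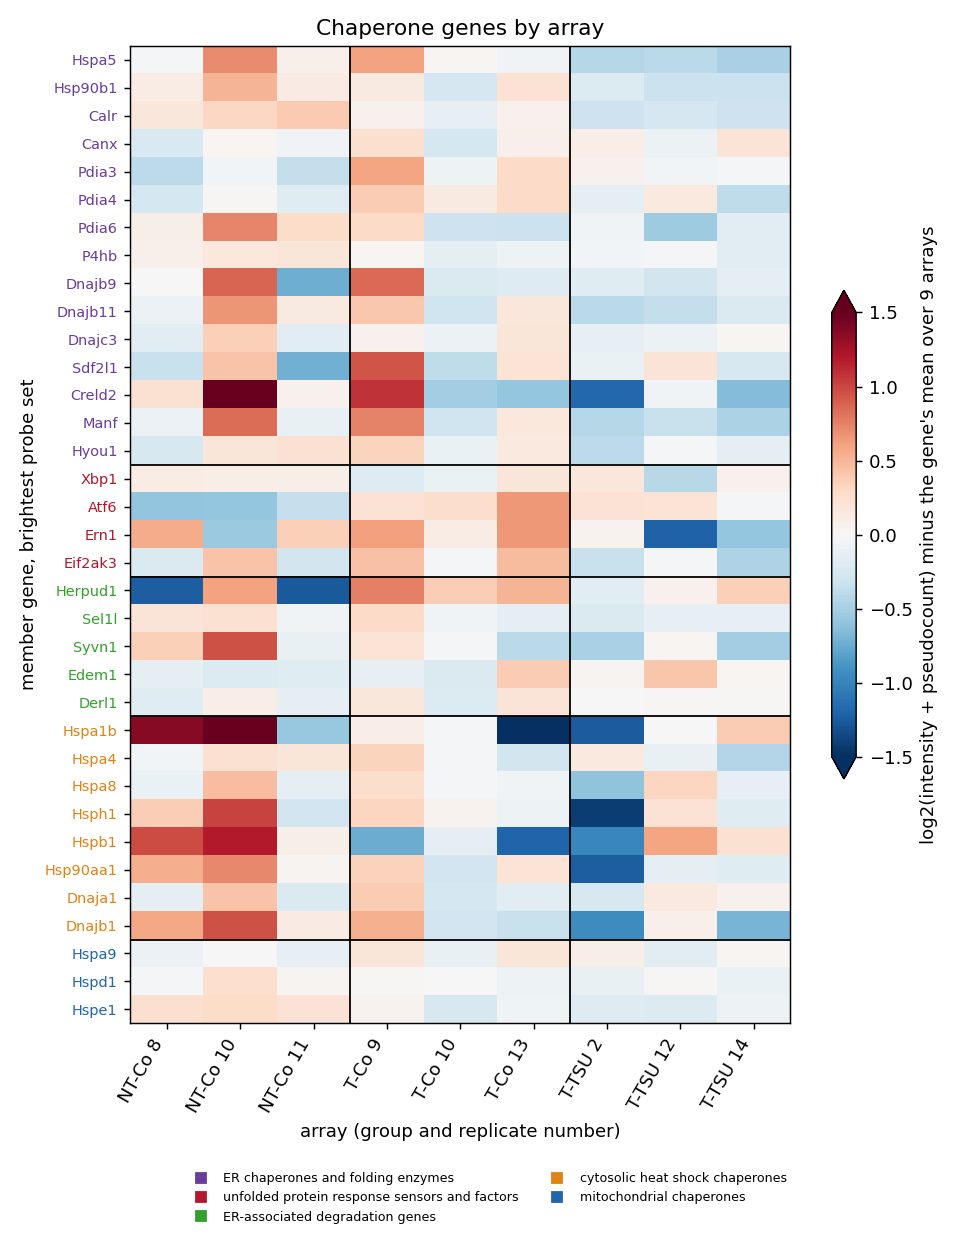
Log2(intensity + 7.92) of each measured gene minus its mean over the 9 arrays (colour, from -1.5 to 1.5), with genes in rows by role and arrays in columns by group and replicate. NT-Co replicate 10 and T-Co replicate 9 are red through most of the ER and cytosolic rows, the T-TSU arrays are mostly pale blue in the ER rows, and Atf6 is blue in NT-Co and red or near white in the tumour groups.

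Within the vehicle groups, the ER chaperones varied widely between arrays. NT-Co replicate 10 was the highest array of its group for 12 of the 15, where it was the highest for 32.3% of all genes, and T-Co replicate 9 was the highest of its group for 13 of the 15, where it was the highest for 30.8% of all genes. The median SD of the 15 on the log2 scale was 0.31 in NT-Co and 0.33 in T-Co but 0.08 in T-TSU. Over all genes, not matched to the members in intensity, it was 0.21, 0.27 and 0.23. That of the 8 cytosolic members was larger than that of the ER chaperones in each group, at 0.38, 0.34 and 0.58. Of the 6 vehicle arrays, 2 had raised levels of the ER chaperones, by 0.49 and 0.45 on average relative to the mean of all arrays. The 3 T-TSU arrays lay at -0.25, -0.17 and -0.23. The same NT-Co array was also the highest of its group for 8 of 8 cytosolic and 3 of 3 mitochondrial members, and the same T-Co array for 7 of 8 and 3 of 3. These are descriptions of single arrays, and whether the difference in spread would recur in other samples was not tested.

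**Figure D3:**
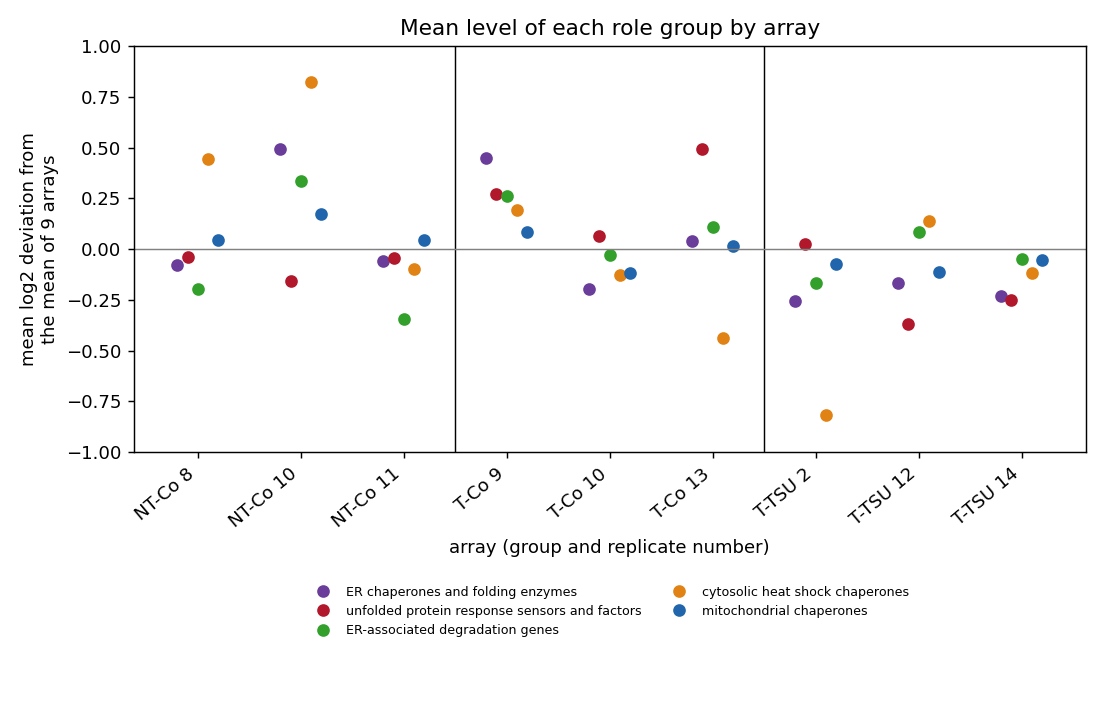
Mean log2 deviation of the members of each role from the mean of the 9 arrays (vertical axis) for every array (horizontal axis, by group and replicate). The ER chaperones reach 0.49 in NT-Co replicate 10 and 0.45 in T-Co replicate 9 and stay between -0.25 and -0.17 in T-TSU, and the cytosolic chaperones run from 0.82 in NT-Co replicate 10 to -0.82 in T-TSU replicate 2.

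Of the sensors and factors of the unfolded protein response, Atf6 was the member with the firmest difference. Atf6 encodes a membrane-bound transcription factor that is cut and released on ER stress. Its intensities were 568, 573 and 677 for NT-Co, 1000.5, 1039 and 1361 for T-Co, and 1003, 992 and 845 for T-TSU. All 6 arrays of tumour-bearing mice lay above all 3 arrays of mice without tumour, and the tumour groups overlapped with each other. Atf6 rose by 0.89 ± 0.16 in T-Co against NT-Co, 1.85-fold, with a 95% interval of 0.54 to 1.23 and an adjusted p of 0.00695. It passed in 19 of 19 alternatives, with adjusted p between 0.00564 and 0.0364. In T-TSU against NT-Co it rose by 0.64 ± 0.16, 1.56-fold (adjusted p = 0.0457), a call that passed in 11 of 19 alternatives and was lost without any 1 of the 6 arrays compared (adjusted p up to 0.158), and T-TSU differed from T-Co by -0.25 ± 0.16 (adjusted p = 0.633). Only 1 probe set reads Atf6, and no promoter window was matched to it.

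The other sensors were not called. Xbp1, whose mRNA is spliced by IRE1 to make an active factor, averaged 7658 ± 63.3 for NT-Co, 7009 ± 977 for T-Co and 6937 ± 1416 for T-TSU. The spliced and unspliced forms are not told apart by these intensities. Ern1 was dim, at 77.4, 31.5 and 66.6 for NT-Co, 81.3, 55.0 and 83.6 for T-Co, and 52.2, 17.1 and 30.9 for T-TSU, and near the filter a fold is understated. Eif2ak3 averaged 333 ± 97.5 for NT-Co, 412 ± 75.9 for T-Co and 274 ± 43.7 for T-TSU. For both kinases every T-TSU array lay below every T-Co array, with differences of -1.05 ± 0.46 for Ern1 (adjusted p = 0.456) and -0.57 ± 0.23 for Eif2ak3 (adjusted p = 0.403). The medians of the 4 genes were 0.33 in T-Co against NT-Co and -0.41 in T-TSU against T-Co, a pair that shares the T-Co arrays. With the mean of all probe sets of a gene, which left 3 of the 4 above the filter, they were 0.092 and 0.085, so the direction of the second turned. T-Co replicate 13 was the highest of its group for 4 of 4, where it was the highest for 32.1% of all genes.

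Herpud1 had the largest difference of the ER-associated degradation genes. It encodes a stress-induced ER membrane protein that helps assemble the degradation complex. Its intensities were 3781, 13536 and 3710 for NT-Co, 15042, 11465 and 12646 for T-Co, and 7878, 9282 and 11411 for T-TSU. NT-Co replicate 10 lay among the T-Co values while the other NT-Co arrays were lower than every array of tumour-bearing mice, and T-TSU lay below T-Co without overlap by a narrow margin. The T-Co against NT-Co difference was 1.17 ± 0.38, 2.25-fold, with an adjusted p of 0.0895. Without NT-Co replicate 10 it was 1.79 with an adjusted p of 0.0008, and T-TSU against NT-Co was 1.33 with an adjusted p of 0.0038.

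A second Herpud1 probe set read 2444, 5600 and 1983 for NT-Co, 9759, 6831 and 7812 for T-Co, and 4291, 7325 and 6294 for T-TSU. On this probe set the groups NT-Co and T-Co did not overlap, and it rose by 1.42 ± 0.32 (adjusted p = 0.0212). The call passed in 13 of 18 alternatives and was lost without NT-Co replicate 8 or 11 or T-Co replicate 9 (adjusted p up to 0.0908). It was also lost without the intensity trend (adjusted p = 0.0841) and with robust variance moderation (adjusted p = 0.0621). T-TSU against T-Co was -0.46 ± 0.38 on the brighter and -0.46 ± 0.32 on the dimmer probe set, with adjusted p of 0.719 and 0.655. The ubiquitin ligase Syvn1 (HRD1) averaged 1307.5 ± 487 for NT-Co, 909.6 ± 188 for T-Co and 764 ± 174 for T-TSU, and its partner Sel1l 1274 ± 130, 1201 ± 198 and 1048 ± 39.1. Edem1, which hands misfolded glycoproteins to degradation, averaged 1435 ± 37.7, 1658 ± 387 and 1826 ± 295, and Derl1, a channel component, 1317 ± 138, 1444 ± 213 and 1394 ± 7.20. None of these 4 was called in any comparison, and the median of the 5 genes was 0.13 in T-Co against NT-Co and -0.18 in T-TSU against T-Co.

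**Figure D4:**
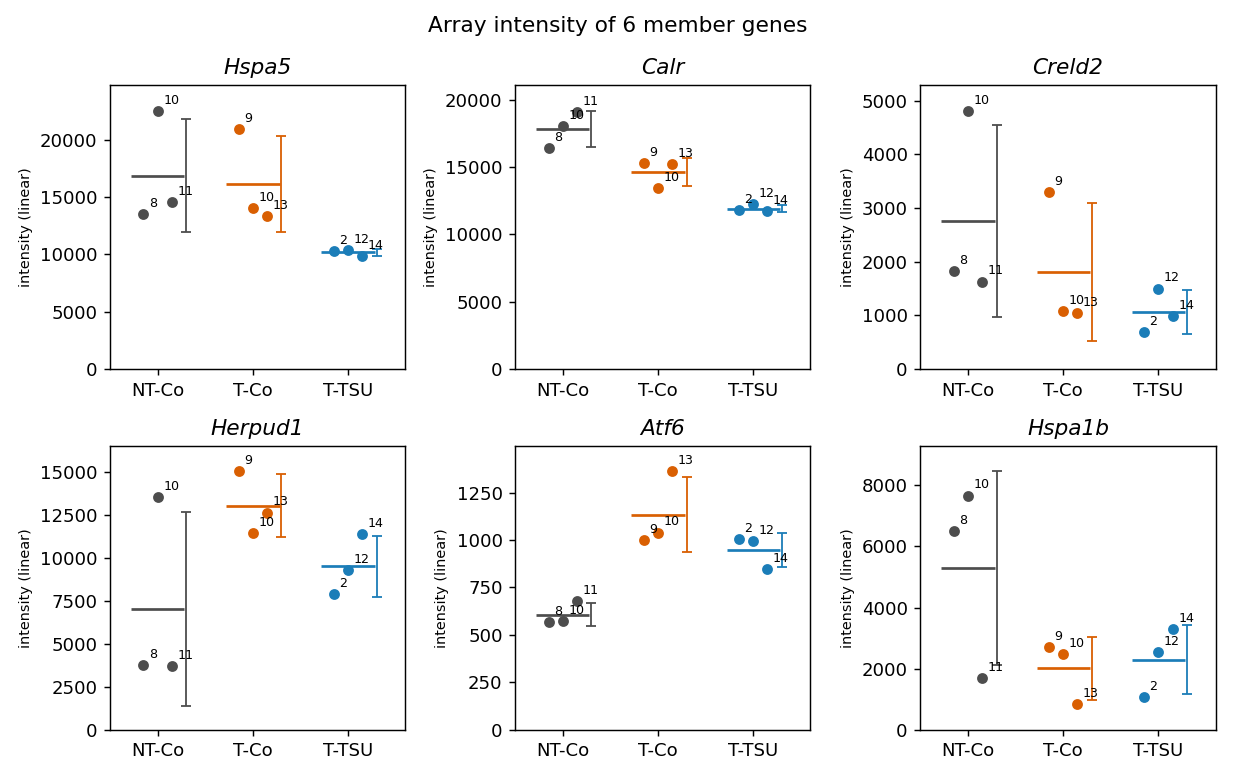
Linear array intensity (vertical axis) of Hspa5, Calr, Creld2, Herpud1, Atf6 and Hspa1b in each array (points, with the replicate number) by group, with the group mean (horizontal line) and SD (bar, n = 3). Calr steps down from NT-Co through T-Co to T-TSU without overlap, Atf6 is higher in all tumour-bearing samples, and Hspa5, Creld2 and Herpud1 each have NT-Co replicate 10 far above the other NT-Co samples.

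The cytosolic heat shock chaperones were the role with the lowest medians in the comparisons with NT-Co. Hspa1b, the stress-inducible Hsp70, read 6508, 7666 and 1696 for NT-Co, 2704, 2473 and 833 for T-Co, and 1056, 2537 and 3290 for T-TSU. NT-Co replicates 8 and 10 lay above all other arrays, but the remaining NT-Co array fell within the range of the tumour groups. The difference in T-Co against NT-Co was -1.30 ± 0.58 (adjusted p = 0.214), and the 2 other Hspa1b probe sets gave -1.42 and -1.18. Hspa1a is a near-identical copy whose transcripts such probe sets may also bind, so the pair is uncertain. Its own probe set read 311, 530 and 38.9 in NT-Co replicates 8, 10 and 11, and 14.0 to 69.2 in the other 6 arrays.

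Hspb1 (Hsp25 in mouse), a small chaperone that holds unfolding proteins, read 861, 996 and 461 for NT-Co, 255, 392 and 183 for T-Co, and 215, 657 and 506 for T-TSU. Every T-Co array lay below every NT-Co array, and T-TSU overlapped with both. The difference of -1.45 ± 0.40, 2.73-fold lower, had an adjusted p of 0.051 and passed in 9 of 19 alternatives. A second, dimmer Hspb1 probe set gave -0.73 ± 0.38 (adjusted p = 0.29). T-TSU against T-Co was 0.64 ± 0.40 on the brighter and -0.41 ± 0.38 on the dimmer probe set, so no direction is given for that comparison.

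Hsp90aa1, the inducible Hsp90, read 6979, 7875 and 4923 for NT-Co, 6107, 3931 and 5550 for T-Co, and 2030, 4317 and 4230 for T-TSU. Dnajb1 (Hsp40), which loads clients onto Hsp70, read 1337, 1741 and 977 for NT-Co, 1296, 733 and 706 for T-Co, and 461, 947 and 549 for T-TSU. For both, every T-TSU array lay below every NT-Co array. The differences of -0.95 ± 0.28 (adjusted p = 0.0835) and -1.07 ± 0.30 (adjusted p = 0.0723) did not pass. Hsph1, an Hsp110 that exchanges nucleotide on Hsp70, read 1799, 2813 and 1138 for NT-Co, 1741, 1437 and 1321.5 for T-Co, and 511, 1620 and 1224 for T-TSU. T-TSU replicate 2 was the lowest array of its group for 7 of the 8 cytosolic genes, as NT-Co replicate 11 was in its own group. Over all genes, T-TSU replicate 2 was the lowest of its group for 33.6% and NT-Co replicate 11 for 30.3%.

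The constitutive members moved little. Hspa8, the housekeeping Hsc70, averaged 13376 ± 3299 for NT-Co, 13077 ± 1647 for T-Co and 11718 ± 3681 for T-TSU, and its processed pseudogenes may share signal. Hspa4, a further Hsp110, averaged 1278 ± 125, 1198.5 ± 258 and 1079 ± 216, and the cochaperone Dnaja1 6842 ± 1769, 6658 ± 1673 and 6599 ± 903. All 8 measured cytosolic genes had differences below 0 in T-Co against NT-Co, with a median of -0.30, and in T-TSU against NT-Co, with a median of -0.82, where 51.7% and 51.8% of all genes lay below 0. None of the 8 was called. The first count was 5 of 8 without NT-Co replicate 10 and without T-Co replicate 13, and the first median ran from -0.56 to -0.13 with 1 array left out. The second median ran from -1.145 to -0.37, so single arrays carry much of both. In T-TSU against T-Co 5 of 8 were below 0, with a median of -0.17.

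The mitochondrial chaperones were the steadiest, with the lowest median SD of the 5 roles in each group (0.06, 0.15 and 0.07 on the log2 scale). Hspa9 (mortalin), which draws proteins into the matrix, averaged 3371 ± 137 for NT-Co, 3776 ± 423 for T-Co and 3516 ± 306 for T-TSU, and Hspd1 (Hsp60) 10691 ± 1080, 9837 ± 322 and 9576 ± 482. Hspe1 (Hsp10), the lid of the Hsp60 chamber, read 8690, 8887 and 8568 for NT-Co, 7612, 6230 and 7058 for T-Co, and 6409, 6387 and 6959 for T-TSU. Both tumour groups lay below NT-Co without overlap. The differences were -0.33 ± 0.11 in T-Co (adjusted p = 0.0873) and -0.40 ± 0.11 in T-TSU (adjusted p = 0.0547), neither called. Hspd1 and Hspe1 are transcribed from a shared promoter region, that of the sequence above, and for Hspd1 the same differences were -0.12 ± 0.10 and -0.16 ± 0.10. Pseudogenes of both may share signal.

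Further genes of the same pathways were read from 4 lists with 116 names, of which 101 were tested. In T-Co against NT-Co 4 were called higher and 4 lower, in T-TSU against T-Co 0 were called in either direction (7 at an unadjusted p under 0.05), and in T-TSU against NT-Co 1 was called higher and 3 lower. As shares of the 101 these lie near the background given above. The largest called difference was that of Clpx, the unfoldase subunit of the mitochondrial ClpXP protease, which read 6770, 6344 and 5242 for NT-Co, 2354, 1427 and 3113 for T-Co, and 1184, 1359 and 996 for T-TSU. All 3 groups were separate, with T-TSU lowest. Against NT-Co, Clpx fell in both groups, with log2 differences of -1.47 ± 0.24 in T-Co (adjusted p = 0.00386) and -2.37 ± 0.24 in T-TSU (adjusted p = 0.000329), and both calls held in 19 of 19 alternatives.

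Fkbp5, an Hsp90 cochaperone and a well-known target of the glucocorticoid receptor, read 509, 400.0 and 419 for NT-Co, 1557, 2175 and 2743 for T-Co, and 653, 2293 and 1911 for T-TSU. Each tumour-bearing sample lay above each NT-Co sample. It rose by 2.24 ± 0.37 in T-Co (adjusted p = 0.00454), in 19 of 19 alternatives, and by 1.67 ± 0.37 in T-TSU (adjusted p = 0.0263). In T-Co against NT-Co the testis-enriched Hsp70 Hspa2 (1.35 ± 0.35) and 2 genes of the PERK branch, Chac1, which degrades glutathione (1.58 ± 0.42), and Ppp1r15a, a phosphatase subunit that ends the PERK signal (1.08 ± 0.29), also rose. Adjusted p was 0.0418, 0.0446 and 0.0474. Those that fell were Cct3, a subunit of the cytosolic chaperonin (-0.54 ± 0.14), Bet1, a vesicle fusion protein (-0.62 ± 0.16), and Sec11c, a signal peptidase subunit (-0.57 ± 0.15), with adjusted p of 0.0337, 0.0382 and 0.0423. In T-TSU against NT-Co Cct3 (-0.67 ± 0.14) and Creld1 (-0.74 ± 0.18) fell, with adjusted p of 0.0161 and 0.0400. For Cct3 the mean of all its probe sets gave -0.03 (adjusted p = 0.94) in T-Co and -0.42 (adjusted p = 0.203) in T-TSU against NT-Co. That of Bet1 gave -0.32 (adjusted p = 0.298) in T-Co, so the calls of both genes rest on the brightest probe set. The calls that follow were less firm than those of Clpx. In T-Co against NT-Co, Chac1 and Ppp1r15a each passed in 6 of 19 alternatives, Sec11c in 8 and Bet1 in 10. There Cct3 passed in 11 and Hspa2 in 7 of 18. In T-TSU against NT-Co, Fkbp5 and Creld1 each passed in 12 and Cct3 in 13.

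Other measures moved with these groups. Among 10 circadian clock genes, 5 rose and 1 fell in T-Co against NT-Co, and 6 rose and 2 fell in T-TSU against NT-Co. Under the alternatives the first pair of counts ran from 3 to 6 and from 0 to 1, with 3 higher without NT-Co replicate 11 and likewise 3 without T-Co replicate 10, and the second from 5 to 6 and from 1 to 2. The output factor Dbp, named for its wide range, read 97.4, 68.1 and 81.1 for NT-Co, 1263, 2465 and 158 for T-Co, and 4343, 1466 and 1652 for T-TSU. The hepatocyte marker list had 4 of 10 genes called higher in T-Co against NT-Co, 2 of them without NT-Co replicate 8 and 0 without the intensity trend. The summed level of 12 Kupffer cell and macrophage markers was 8783 to 12405 for NT-Co, 12343 to 18333 for T-Co and 5576 to 12076 for T-TSU, and that of 11 endothelial markers 3000 to 4020, 3735 to 5586 and 2547 to 3592. The 10 stellate cell and fibroblast markers went the other way, with sums of 7441 to 8265, 5876 to 6656 and 6736 to 7900, and 2 of the 9 tested fell in T-Co against NT-Co (0 without NT-Co replicate 8, 1 without NT-Co replicate 11 and likewise 1 without T-Co replicate 10). The 9 neutrophil markers summed to 559.5 to 979, 880.0 to 2261 and 457 to 878, with Camp, Ltf, Cxcr2 and Mmp8 below the filter, and the 5 cholangiocyte markers to 211 to 309, 232 to 295 and 209 to 243. The part of the hour of collection, of the cell mix and of RNA quality in the chaperone values was not tested.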

How the data were processed

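Liver RNA of 9 samples in 3 groups of 3 was measured on 3′ expression arrays. Per the labels' protocols, 5 µg of total RNA was made into biotin-labelled cRNA with a one-cycle kit. The deposited values are linear array intensities; the program that summarised and scaled them is not given in the labels, and means of 500.26 to 500.28 after trimming 2% at each end show a common scaling. Groups came from sample titles. No normalization was added. Intensities were analysed as log2(intensity + 7.92), the 10th percentile, which understates folds of dim genes. Probe sets with a mean under the 30th percentile (intensity 36.2) were left out, leaving 15838. A group-means model over all 9 arrays (6 residual degrees of freedom) was fitted with limma 3.58.1 in R 4.3.3, with eBayes along the intensity trend, two-sided tests and Benjamini-Hochberg adjustment across all of these probe sets. The pipeline was tested on simulated data. A gene is given by its brightest single-gene probe set, and other probe sets are named where call or sign differs. Of the further genes, at most 4 called per direction and comparison with the smallest p are named; Hspa1a and Dbp were chosen after their values were seen. Members and lists were chosen with earlier results of these data known. Gene names came from the platform annotation and promoters from RefSeq. The alternatives changed the pseudocount, filter, normalization, variance moderation, groups fitted and probe set rule, or left out 1 array.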

Additional observations from a re-analysis of the deposited data

How the results depend on the processing

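Member counts, role medians, members and named further genes were recomputed under 19 alternatives, 9 of which leave out 1 array; 18 could be run for Hspa2, for the F test and for single probe sets, and 17 for Ern1. Clock gene, hepatocyte and stellate marker counts and further probe sets were added to these after seeing the data, and the other marker lists were not recomputed. No called difference changed sign under any of them, and no member was called in T-TSU against T-Co under any. Members called lower in T-Co against NT-Co numbered 0, and 1 with a pseudocount of 16, with the filter at the 50th percentile, with arrays centred on the median or with only the 2 groups fitted (Hspb1 each time), and 2 with quantile normalization (Calr as well). Members called lower in T-TSU against NT-Co numbered 1, and 2 with the 50th percentile filter or robust moderation, 5 with only the 2 groups fitted, and 0 without the intensity trend. Members called higher there numbered 1, and 0 with arrays centred on the median or without the trend. The F test called 2 members, and 0 without the trend. Without the trend 1 variance prior is used for bright and dim probe sets alike. With the mean of all probe sets, 3 rather than 4 unfolded protein response genes were tested, with medians of 0.092 for T-Co against NT-Co, 0.085 for T-TSU against T-Co and 0.18 for T-TSU against NT-Co. Leaving out 1 array at a time, calls ran from 1 to 2 higher and 0 to 1 lower in T-Co against NT-Co, from 0 to 1 higher and 1 to 3 lower in T-TSU against NT-Co, and from 1 to 4 in the F test. The ER chaperone median ran from -0.249 (without T-Co replicate 9) to 0.156 (without NT-Co replicate 10) in T-Co against NT-Co and from -0.530 to -0.209 in T-TSU against NT-Co, and the cytosolic median from -1.145 to -0.371 in T-TSU against NT-Co. No paired analysis was possible because the groups compared share fewer than 2 replicate numbers. The number of arrays and the dim intensities near the filter limit the precision.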
